A study of Mus musculus with 9 samples.

Results

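The inhibitors and partners of the myogenic basic helix-loop-helix factors are 8 genes: the inhibitors Id1, Id2, Id3 and Id4, the repressor Msc (musculin), and the E proteins Tcf3, Tcf4 and Tcf12. They were chosen by name, as every probe whose gene name in the scanner files is one of the 8. This gave 11 probes, of which 10 passed the filter on dim probes, so 7 of the 8 genes were among the 21995 genes tested. The cells were C2C12, an established mouse myoblast line that fuses into myotubes, and the series describes them as myotubes. They were treated for 72 h with vehicle or with 1,25 (OH)2-vitamine D3 (calcitriol, the hormonal form of vitamin D) at 1 nM or 10 nM, with 3 biological replicates per group according to the series' design text. Each sample of total RNA was hybridised to a 1-colour array. All groups are from the same line, and the labels used here state neither the medium nor the nature of the vehicle.

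The myogenic factors MyoD, Myf5, myogenin and Mrf4 bind E-box DNA as dimers with the broadly expressed E proteins. Id proteins have a helix-loop-helix domain but no DNA-binding region, so an E protein held by an Id protein cannot form an active dimer. Msc does bind E-boxes and acts as a repressor in the muscle lineage. In myoblasts Id genes are known as targets of bone morphogenetic protein (BMP) signalling, and Id protein levels usually fall as cells leave the cycle and differentiate.

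Levels are given as log2 of the processed signal relative to the 75th percentile of that array, so a level of 0 equals the 75th percentile and a difference of 1 is a doubling. They compare one probe between groups, not one gene with another. No spot was saturated. The array of vehicle replicate 3 stood apart, with 13.8% of its spots marked as non-uniform, against 0.018% to 0.126% on the other arrays, and with a median signal of 660, against 216 to 315. Where a member's call, or a list's count of calls against vehicle by over 1.5 times, changed without it, this is given below. Cyp24a1, the vitamin D-degrading enzyme that calcitriol induces, was higher by 1.29 at 1 nM and by 6.13 at 10 nM (adjusted p = 0.00386 and 7.37e-07, limma), the 1 nM call being lost with quantile normalization and within the first of 3 slides. Differences were tested with limma in 1 fit of 9 arrays, with Benjamini-Hochberg adjustment over all 21995 genes and a threshold of 0.05. Both doses were set against the same vehicle arrays.

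The members moved in opposite directions. At both doses Id3 and Tcf4 rose, and Id2, Msc and Tcf3 fell. Id1 and Tcf12 passed the threshold at neither dose, and Id4 lay near background. Of the 7 genes tested, 2 rose and 3 fell at 1 nM, and likewise 2 rose and 3 fell at 10 nM. Over all genes 11.8% rose and 11.8% fell at 1 nM, and 15.4% rose and 14.7% fell at 10 nM. The median change of the 7 genes was -0.02 at 1 nM and -0.23 at 10 nM, beside -0.09 and -0.11 for all genes. In 5 of the 7 genes the 1 nM arrays did not overlap the vehicle arrays, as was the case for 42.4% of all genes, and in 6 of 7 the 10 nM arrays did not, as for 43.8% of all genes. Less RNA per cell and fewer cells with the transcript cannot be told apart in these bulk samples.

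**Figure D1:**
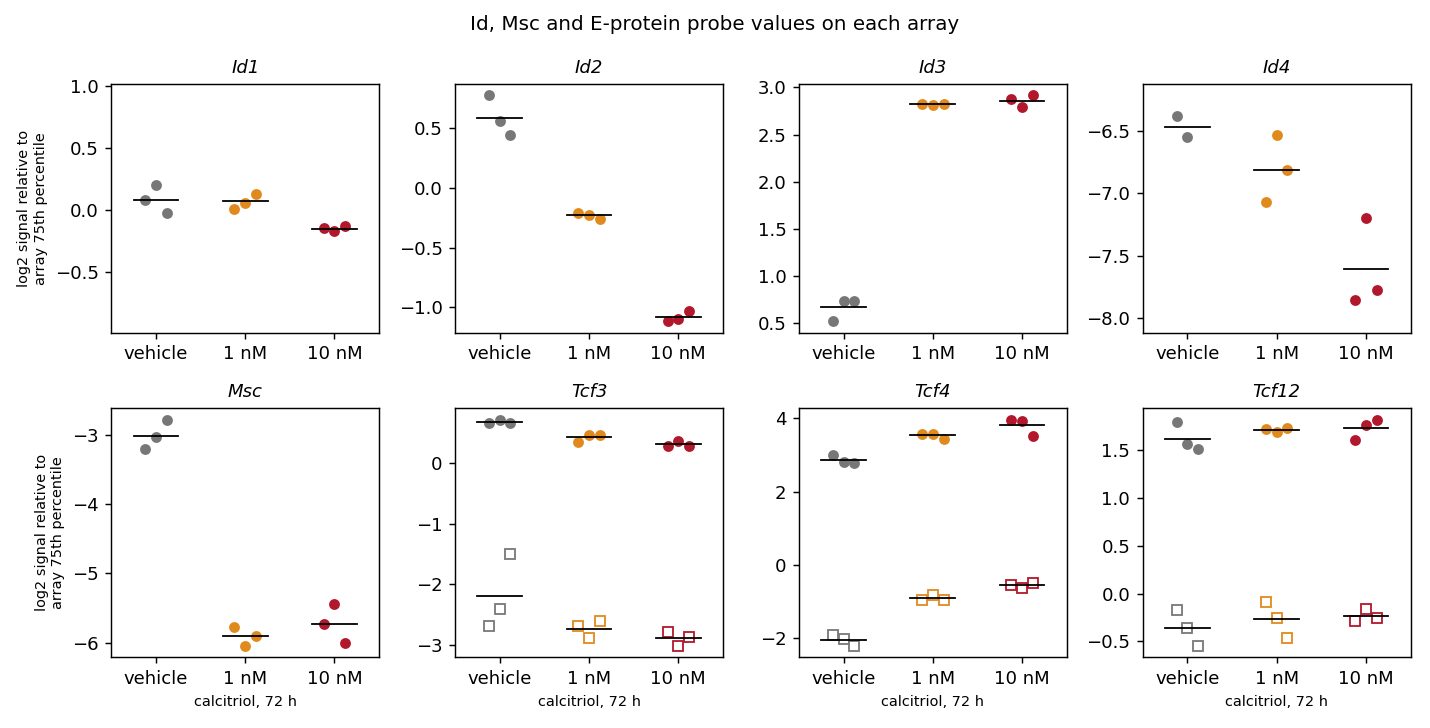
Level of each probe on each array, as log2 signal relative to the 75th percentile of the array, in vehicle, 1 nM and 10 nM samples, with a separate vertical scale for each gene. Points are arrays, horizontal lines are group means, and hollow squares are the second probe of Tcf3, Tcf4 and Tcf12. Id3 was higher and Msc lower at both doses by similar amounts, while Id2 was lower at each dose in turn. The third vehicle spot of Id4 was marked as non-uniform and is not drawn.

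Id3 showed the largest increase of the members. The Id3 probe lies at chr4:135700075-135700249 on the plus strand (mm9, as the files give it), and its 60 bases cover a span of 175 bases, so the genomic match is split. It is shown because the whole Id3 result rests on this probe.
Id3 probe: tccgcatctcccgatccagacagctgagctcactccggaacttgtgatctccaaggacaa
The Id3 level was 0.52, 0.74 and 0.74 in the vehicle arrays, 2.82, 2.81 and 2.82 at 1 nM, and 2.88, 2.79 and 2.92 at 10 nM. All 6 treated arrays lay above all vehicle arrays, and the dose groups overlapped. Id3 averaged 2.82 ± 0.01 at 1 nM and 0.67 ± 0.13 in vehicle (SD, n = 3 each), a 4.43-fold rise (log2 difference 2.15, SE 0.08, adjusted p = 1.48e-06, limma). At 10 nM the mean was 2.86 ± 0.07, which is 4.59-fold above vehicle (log2 difference 2.20, SE 0.08, adjusted p = 8.84e-07, limma). Between the doses the difference was 0.05, with a 95% interval of -0.14 to 0.24 (adjusted p = 1, limma).

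Id2 went the other way and differed at each dose. It is measured by 1 probe at chr12:25778904-25778963 on the minus strand (mm9). Its level was 0.78, 0.56 and 0.44 in the vehicle arrays, -0.21, -0.23 and -0.26 at 1 nM, and -1.12, -1.10 and -1.03 at 10 nM. The 3 groups were fully separated and ordered by dose. Id2 averaged -0.23 ± 0.02 at 1 nM and 0.59 ± 0.17 in vehicle (SD, n = 3 each), which is 1.77-fold lower at 1 nM (log2 difference -0.82, SE 0.09, adjusted p = 0.000521, limma). At 10 nM it averaged -1.08 ± 0.05, which is 3.19-fold below vehicle (log2 difference -1.67, SE 0.09, adjusted p = 7.79e-06, limma). Id2 was also 1.8-fold lower at 10 nM than at 1 nM (log2 difference -0.85, SE 0.09, adjusted p = 0.00348, limma). Scaling to the array median kept the sign of these differences but ended the calls (-0.33 at 1 nM and -1.15 at 10 nM, adjusted p = 0.538 and 0.0534, limma), as did the 4 arrays of the first slide at 1 nM (-0.88, adjusted p = 0.0694). The call between the doses was also lost within the first and the second slide (-0.91 and -0.86, adjusted p = 0.376 and 0.101, limma). Id2 was the only one of the 7 tested members called between the doses, where 0 rose and 1 fell in limma, beside 1.60% and 2.21% of all genes. At an unadjusted p under 0.05, 0 rose and 2 fell, a threshold at which the share of all genes was not counted. With the replicate number as a block Id2 was again the member called between the doses, and the genes called were 459, against 837 without the block. In that comparison 2 of 7 members had groups that did not overlap, beside 24.0% of all genes.

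The promoters of Id2 and Id3 are shown because these 2 members moved in opposite directions and have an entry in the RefSeq promoter table (GRCm38.p6), from which 5 of the 8 members were used here. Each line gives the 250 bases before the annotated start, 5′ to 3′ on the strand of the gene, with an E-box in capitals. The Id2 window is chr12:25096093-25096342 on the minus strand, and the Id3 window is chr4:136143572-136143821 on the plus strand.
Id2 promoter: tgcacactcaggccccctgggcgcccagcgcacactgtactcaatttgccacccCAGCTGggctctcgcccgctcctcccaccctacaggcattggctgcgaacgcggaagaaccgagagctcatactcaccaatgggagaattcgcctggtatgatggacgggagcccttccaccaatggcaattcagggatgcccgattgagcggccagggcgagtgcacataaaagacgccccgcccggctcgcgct
Id3 promoter: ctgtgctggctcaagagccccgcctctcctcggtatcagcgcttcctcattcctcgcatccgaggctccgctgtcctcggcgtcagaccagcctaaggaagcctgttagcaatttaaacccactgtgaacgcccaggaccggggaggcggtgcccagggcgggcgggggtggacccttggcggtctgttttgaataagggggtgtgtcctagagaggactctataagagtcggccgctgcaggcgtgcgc
Both strands were searched for the E-box CANNTG, for GGCGCC, a GC-rich sequence that Smad1 and Smad5 bind in some BMP-responsive genes, and for half-sites of the kind that the vitamin D receptor binds in pairs, which were AGGTCA and the related AGTTCA as well as GGTTCA. The motifs were picked after the members' values had been seen. The Id2 window held 1 E-box, CAGCTG, 196 bases before the start, and 1 GGCGCC, 231 bases before it, and none of the half-sites. The Id3 window held none of the 5 motifs. Of the other members, the Id4 window held 1 GGCGCC and the Tcf3 window 1 E-box, and among 3 windows of Tcf12 an E-box stood in 2 and AGGTCA with GGTTCA in 1. Of 32851 windows of 250 bases in the table, 66.2% held the sequence CANNTG, 9.59% held the sequence GGCGCC, and 14% had AGGTCA, while 11.8% had AGTTCA and 8.85% had GGTTCA. These matches describe letters in a short window and show no binding.

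Id1 changed little. Its probe, at chr2:152563083-152563142 on the plus strand (mm9), gave 0.08, 0.20 and -0.02 in the vehicle arrays, 0.01, 0.06 and 0.13 at 1 nM, and -0.14, -0.17 and -0.13 at 10 nM. The 1 nM arrays lay within the vehicle range, and the 10 nM arrays lay below every other array. The difference of 1 nM from vehicle was -0.02, with a 95% interval of -0.19 to 0.15 (adjusted p = 0.879, limma). At 10 nM it was -0.23 (SE 0.07, 95% interval -0.40 to -0.06), with an adjusted p of 0.05001 (limma), just outside the threshold. Without vehicle replicate 3 the difference at 10 nM was -0.28 and passed it (adjusted p = 0.0209, limma). Of 25 alternative settings, 4 called Id1 at 10 nM, and over all 25 its difference lay between -0.28 and 0.30.

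Id4 was close to the limit of detection and was not kept for the test. Its probe at chr13:48358668-48358727 on the plus strand (mm9) was well above background on 1 of 3 vehicle arrays, 1 of 3 arrays at 1 nM and 0 of 3 at 10 nM. A second vehicle array gave a level of -6.55, and the spot of vehicle replicate 3 was marked as non-uniform, with a processed signal of 260 against 33.3 and 40.1 on the other vehicle arrays. The level was -7.07, -6.53 and -6.81 at 1 nM and -7.86, -7.20 and -7.78 at 10 nM, against -6.38 in vehicle replicate 1, the array where it was detected. With all probes in the fit and no filter, the measured difference at 10 nM was -1.14 (adjusted p = 0.0247, limma). The vehicle value of -6.55 lay below the lowest detected level of its array, -6.28, so no minimum fold can be given. At 1 nM it was -0.34 (adjusted p = 0.425, limma).

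Msc fell most of all members. Its probe, at chr1:14744315-14744374 on the minus strand (mm9), gave -3.21, -3.03 and -2.78 in the vehicle arrays, -5.77, -6.05 and -5.91 at 1 nM, and -5.73, -5.44 and -6.00 at 10 nM. Every one of the 9 arrays detected it above background. All treated arrays lay far below all vehicle arrays, and the 2 doses overlapped. Msc averaged -5.91 ± 0.14 at 1 nM and -3.01 ± 0.21 in vehicle (SD, n = 3 each), which is 7.5-fold lower at 1 nM (log2 difference -2.91, SE 0.17, adjusted p = 1.57e-05, limma). At 10 nM it averaged -5.73 ± 0.28, which is 6.59-fold below vehicle (log2 difference -2.72, SE 0.17, adjusted p = 1.38e-05, limma). Between the doses the difference was 0.19, with a 95% interval of -0.21 to 0.58 (adjusted p = 0.926, limma). The signals behind the treated values were low, 45.3 to 65.5 against 363 to 464 in vehicle, and the size of the fall depended on how background was treated. With normexp background correction the differences were -1.71 at 1 nM and -1.69 at 10 nM, and in the authors' deposited log2 values they were -1.11 and -1.05, all past the threshold in limma (adjusted p = 2.66e-05, 1.98e-05, 0.0138 and 0.0135).

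The E proteins moved less, and not together. Tcf4 (the E protein E2-2) rose on both of its probes. Its brighter probe, at chr18:69842843-69842902 on the plus strand (mm9), gave 2.99, 2.81 and 2.77 in the vehicle arrays, 3.57, 3.58 and 3.42 at 1 nM, and 3.96, 3.93 and 3.51 at 10 nM. Both dose groups lay above vehicle without overlap, and they overlapped each other. The rise was 1.59-fold at 1 nM (log2 difference 0.67, SE 0.13, adjusted p = 0.00913, limma) and 1.93-fold at 10 nM (log2 difference 0.95, SE 0.13, adjusted p = 0.00126, limma). The 1 nM call ended with scaling to the array median (1.16, adjusted p = 0.0577) and within the first slide (0.68, adjusted p = 0.123).

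The other Tcf4 probe, at chr18:69847562-69847621, rose more. It gave -1.91, -2.01 and -2.21 in the vehicle arrays, -0.95, -0.83 and -0.96 at 1 nM, and -0.54, -0.63 and -0.48 at 10 nM. All 3 groups were separated on this probe, with 10 nM highest. The rise was 2.19-fold at 1 nM and 2.82-fold at 10 nM in a fit of all kept probes (log2 differences 1.13 and 1.50, adjusted p = 0.000113 and 1.67e-05, limma). The files give both probes the same transcript accession. The difference between 10 nM and 1 nM was 0.28 on the brighter probe and 0.36 on the other, and neither passed the threshold (adjusted p = 0.51 over genes and 0.11 over probes, limma).

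Tcf3 (the E2A gene, which encodes E12 and E47) fell slightly. The probe used, at chr10:79872639-79872698 on the minus strand (mm9), gave 0.66, 0.72 and 0.66 in the vehicle arrays, 0.35, 0.46 and 0.47 at 1 nM, and 0.28, 0.36 and 0.28 at 10 nM. Every treated array was below every vehicle array. The fall was 1.19-fold at 1 nM (log2 difference -0.25, SE 0.06, adjusted p = 0.0254, limma) and 1.3-fold at 10 nM (log2 difference -0.37, SE 0.06, adjusted p = 0.00331, limma). The call at 1 nM was not kept under 12 of 25 alternative settings, and scaling each array to its median turned the differences to 0.24 and 0.15, neither past the threshold. Without the first or the second vehicle array the adjusted p at 1 nM was 0.0549 or 0.0554, and without any 1 of the 1 nM arrays it was 0.0615 to 0.0805 (limma).

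A second Tcf3 probe, at chr10:79875963-79876022 and assigned to another accession, gave -2.68, -2.41 and -1.50 in the vehicle arrays. It read -2.69, -2.89 and -2.60 at 1 nM, and -2.79, -3.02 and -2.87 at 10 nM. The vehicle arrays were spread by more than 1 on this probe, with vehicle replicate 3 the highest. The differences of -0.53 at 1 nM and -0.69 at 10 nM did not pass the threshold (SE 0.28, adjusted p = 0.23 and 0.106 over all kept probes, limma).

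Tcf12 (the E protein HEB) showed no detectable difference. Its brighter probe, at chr9:71692310-71692369 on the minus strand (mm9), gave 1.80, 1.56 and 1.51 in the vehicle arrays, 1.72, 1.69 and 1.73 at 1 nM, and 1.61, 1.76 and 1.82 at 10 nM. The 3 groups overlapped. The difference from vehicle was 0.09 at 1 nM, with a 95% interval of -0.13 to 0.31, and 0.11 at 10 nM, with an interval of -0.11 to 0.33 (adjusted p = 0.527 and 0.415, limma). The second probe gave differences of 0.09 and 0.12.

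**Figure D2:**
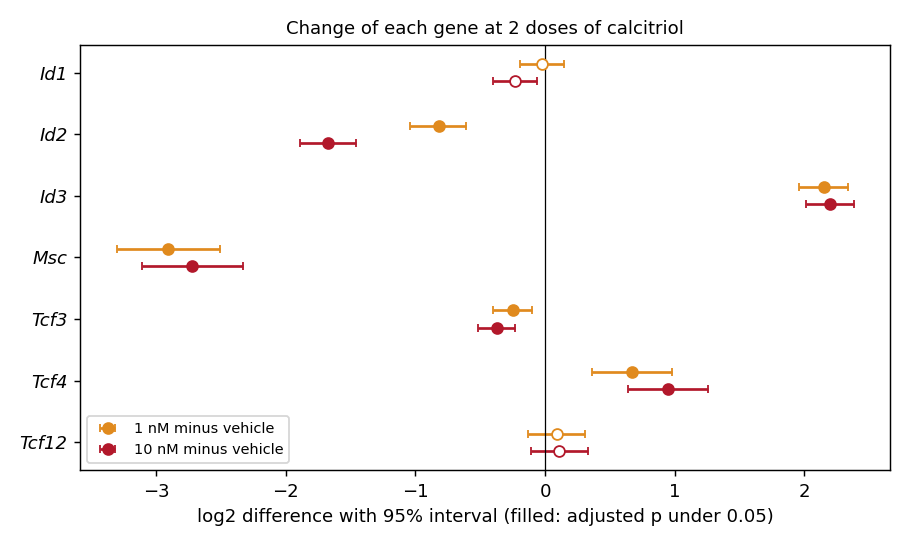
Log2 difference from vehicle of the 7 tested genes, 1 nM above 10 nM in each row, with 95% intervals from the limma fit. Filled points passed an adjusted p of 0.05. Id3 lay at 2.15 and 2.20, Msc at -2.91 and -2.72, and Id2 at -0.82 and -1.67.

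The members also differed in where along the dose range they changed. The step from vehicle to 1 nM was set against the step from 1 nM to 10 nM, in a contrast added after the values had been seen. The second step of Id3 was smaller than its first by 2.10 on the log2 scale (contrast -2.10, SE 0.14, adjusted p = 0.000139, limma). For Msc the second step less the first was 3.09 (SE 0.29, adjusted p = 0.000679, limma), since its first step was downward and its second near 0. The treated Msc levels, -5.44 to -6.05, lay near the lowest detected levels of those arrays, -6.33 to -7.36. A further fall of Msc at 10 nM could therefore have been hard to see. For Id2 the steps were -0.82 and -0.85, and their difference of -0.03 had a 95% interval of -0.40 to 0.35 (adjusted p = 0.963, limma). Over all genes 7.46% passed this contrast. Of the 7 members, Id3 and Msc did so and the other 5 did not, Tcf4 with -0.39 (adjusted p = 0.488), Id1 with -0.19, Tcf3 with 0.13 and Tcf12 with -0.07. Within the 4 arrays of the first slide the contrast of Id3 was -2.13 and that of Msc 2.69, neither past the threshold (adjusted p = 0.103 and 0.0535, limma). For Msc this was so with quantile normalization (2.40, adjusted p = 0.0775) and in the authors' deposited log2 values (1.16, adjusted p = 0.213) as well.

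**Figure D3:**
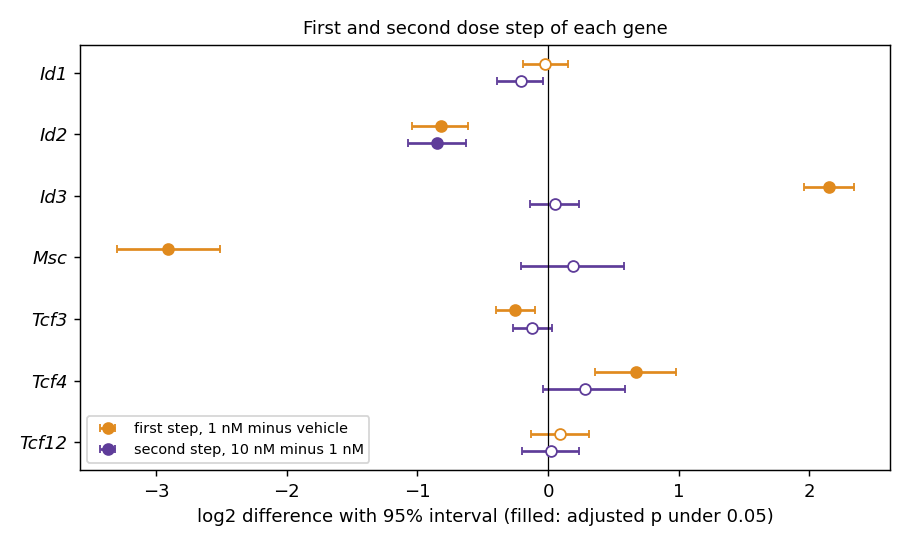
Log2 difference of the first dose step (1 nM minus vehicle) and the second (10 nM minus 1 nM) for the 7 tested genes, with 95% intervals. Filled points passed an adjusted p of 0.05. Id2 had steps of -0.82 and -0.85, whereas the second steps of Id3 and Msc were 0.05 and 0.19.

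The genes with the most similar pattern were sought for Id2, Id3 and Msc, the members whose group means spanned at least 1. Likeness was the root mean square difference over the 9 arrays after centring each gene on its mean, among 20210 genes with a value on every array. Since the 9 arrays fall into 3 groups, this mostly compares the 3 group means. Closest to Id2 were Egr2 (0.08), an immediate early transcription factor, Alox5 (0.107), the arachidonate lipoxygenase, and Runx2 (0.111), the osteoblast transcription factor. Egr2 averaged -0.67 ± 0.03 at 10 nM and 0.22 ± 0.07 at 1 nM, against 1.11 ± 0.09 in vehicle (SD, n = 3 each), and so was ordered by dose as Id2 was. Closest to Id3 were the glutamate transporter Slc1a6 (0.0774), Clba1 (0.0943) and Ms4a4d (0.103). Closest to Msc were the lactate exporter Slc16a3 (0.192), Aunip (0.204) and Traip (0.215), the ubiquitin ligase of replication forks.

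The myogenic factors with which the E proteins pair also moved unequally. Of the 4, Myod1 and Myf6 (Mrf4) rose at both doses. Myod1 averaged 2.24 ± 0.10 at 1 nM and 2.46 ± 0.10 at 10 nM, against 1.57 ± 0.19 in vehicle (SD, n = 3 each; log2 differences 0.66 and 0.89, adjusted p = 0.00415 and 0.000689, limma). Myf6 was higher by 0.93 and 1.14 (adjusted p = 0.0049 and 0.00128, limma). Myog, the myogenin gene, fell by 0.43 at 10 nM (adjusted p = 0.00287, limma) and differed by -0.13 at 1 nM (adjusted p = 0.226). Myf5 was well above background on all vehicle arrays but on only 1 of 3 arrays at each dose, and its differences of -1.11 and -1.25 did not pass the threshold (adjusted p = 0.181 and 0.114, limma). Myod1 and Myf6 lost their calls at both doses within the first slide, where each dose has 1 array, as did Myf6 with quantile normalization and Myod1 at 1 nM with scaling to the array median. Under all 25 alternatives the differences were at least 0.55 and 0.81 for Myod1, and 0.73 and 1.04 for Myf6. Myog lost its call within either slide and with median scaling, where its sign turned (0.10).

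Other factors of the helix-loop-helix family and other E-box repressors formed a list of 28 genes, of which 22 were measured. At 1 nM 4 rose and 6 fell, and at 10 nM 4 rose and 7 fell. Of all genes, 11.8% rose and 11.8% fell at 1 nM, and 15.4% rose and 14.7% fell at 10 nM. The list median was -0.17 at 1 nM and -0.32 at 10 nM, beside -0.09 and -0.11 for all genes. Mdfi, which encodes I-mfa, an inhibitor that binds myogenic factors and holds them in the cytoplasm, rose most in the list. It gave -1.66, -1.54 and -1.01 in the vehicle arrays, 2.04, 2.22 and 1.94 at 1 nM, and 2.95, 2.20 and 2.73 at 10 nM. This is 11.1-fold higher at 1 nM and 16.3-fold higher at 10 nM (log2 differences 3.47 and 4.03, SE 0.23, adjusted p = 3.36e-05 and 9.77e-06, limma), and the call was kept under all 25 alternatives at both doses.

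The zinc finger repressors Snai1 and Snai2, which occupy E-boxes in myoblasts, fell. Snai1 differed by -1.19 at 1 nM and -1.63 at 10 nM (adjusted p = 0.000105 and 1.31e-05, limma), and Snai2 by -0.68 and -1.34 (adjusted p = 0.00145 and 2.58e-05, limma). Snai2 was also lower at 10 nM than at 1 nM, by -0.67 (adjusted p = 0.00853, limma), a call lost under 6 of 25 alternatives, the slide block and the fit without 1 nM replicate 3 among them. The Notch-responsive repressors Hes1 and Hey1 fell as well, with log2 differences of -1.23 and -1.36 for Hes1 and of -0.89 and -0.94 for Hey1 (adjusted p = 0.000241, 9.79e-05, 0.00051 and 0.000269, limma). Hes6, which favours differentiation in C2C12 cells, was higher by 0.30 at 1 nM and 0.47 at 10 nM (adjusted p = 0.0487 and 0.00518, limma), and the 1 nM call was lost under 19 of 25 alternatives. The falls of Snai1, Snai2, Hes1 and Hey1 kept their sign but not their call when arrays were scaled to the median. That scaling moved the median of all genes to 0.38 at 1 nM and 0.40 at 10 nM, and the list then had medians of 0.20 and 0.07, with 1 gene higher and 0 lower at 1 nM, and 2 higher and 0 lower at 10 nM. Without vehicle replicate 3 the same scaling gave 2 higher and 4 lower at 1 nM, and 4 higher and 7 lower at 10 nM. Within the first slide Hey1 lost its call at both doses and Snai2 at 1 nM.

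BMP signalling, which drives Id transcription, was followed in a list of 31 ligands, receptors, Smads and antagonists, of which 27 were measured. At 1 nM 8 rose and 2 fell, and at 10 nM 7 rose and 5 fell. Of all genes, 11.8% rose and 11.8% fell at 1 nM, and 15.4% rose and 14.7% fell at 10 nM. The list medians were 0.07 and 0.01, beside -0.09 and -0.11 for all genes. With scaling to the array median 5 genes of the list rose and 2 fell at 1 nM, and 6 rose and 2 fell at 10 nM. Without vehicle replicate 3 that scaling gave 8 higher and 2 lower at 1 nM, and 7 higher and 3 lower at 10 nM. Among the receptors, Acvrl1 (the type I receptor ALK1) rose 3.61-fold at 1 nM and 3.49-fold at 10 nM (log2 differences 1.85 and 1.80, adjusted p = 2.08e-05 and 1.51e-05, limma). Bmpr1b, another type I receptor, was 4.05-fold lower at 1 nM and 6.92-fold lower at 10 nM (log2 differences -2.02 and -2.79, adjusted p = 0.000172 and 2.01e-05, limma).

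Among the extracellular modulators, Bmper was 2.81-fold and 1.97-fold higher at 1 and 10 nM (adjusted p = 1.35e-05 and 8.41e-05, limma), and it was lower at 10 nM than at 1 nM (log2 difference -0.51, adjusted p = 0.0166, limma). That call between the doses was lost under 11 of 25 alternatives, and over all 25 the difference lay between -0.59 and -0.45. The antagonist Nbl1 was 1.81-fold and 2.3-fold higher (adjusted p = 0.000328 and 3.52e-05, limma). The ligand Bmp4 and the inhibitory Smads Smad6 and Smad7 were picked after their values had been seen. Bmp4 was higher by 1.27 and 0.90 (adjusted p = 0.000192 and 0.000877, limma). Smad6 and Smad7 fell by 0.32 and 0.49 at 10 nM (adjusted p = 0.0201 and 0.049, limma), with differences of -0.12 and -0.27 at 1 nM that did not pass.

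**Figure D4:**
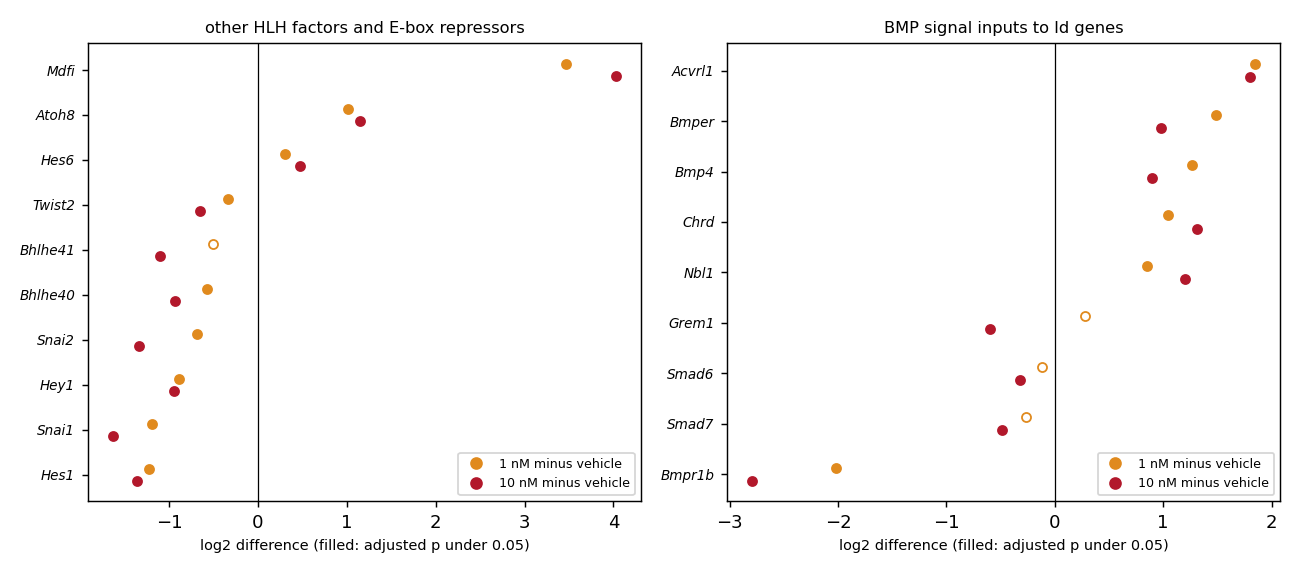
Log2 difference from vehicle of 10 named genes in the list of other helix-loop-helix factors and E-box repressors (left) and of 9 named genes in the list of BMP signal inputs (right), ordered by the value at 1 nM. Filled points passed an adjusted p of 0.05. Mdfi stood highest on the left at 3.47 and 4.03, and Bmpr1b lowest on the right at -2.02 and -2.79.

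Genes that myogenic dimers are known to switch on through E-boxes formed a list of 20, all measured. Myog and Hes6 are in this list and in the lists above, so they are counted in both. At 1 nM 6 rose and 0 fell in limma, and at 10 nM 6 rose and 2 fell. At an unadjusted p under 0.05, 13 rose and 1 fell at 1 nM, a threshold at which the share of all genes was not counted. After adjustment 11.8% of all genes rose and 11.8% fell at 1 nM, and 15.4% and 14.7% did so at 10 nM. The list medians were 0.28 and 0.22, beside -0.09 and -0.11 for all genes. Chrnd, the delta subunit of the acetylcholine receptor, was higher by 0.46 and 0.45 (adjusted p = 0.00276 and 0.0025, limma), and Tnni1, slow skeletal troponin I, by 0.46 and 0.55 (adjusted p = 0.0232 and 0.00812, limma). Ckm, muscle creatine kinase, was higher by 0.48 and 0.37 (adjusted p = 0.0158 and 0.0354, limma), and Mef2c by 0.52 at 1 nM (adjusted p = 0.028, limma), with 0.29 at 10 nM (adjusted p = 0.155). Of 25 alternatives, 17 ended the Ckm call at 10 nM, 13 the Mef2c call at 1 nM and 8 the Tnni1 call at 1 nM, though their differences stayed above 0 under all of them. Mymx, which encodes the fusion peptide myomixer, fell by 0.63 at 10 nM (adjusted p = 0.00261, limma). Without vehicle replicate 3 the list had 3 genes higher and 1 lower at 1 nM, and 4 higher and 2 lower at 10 nM. With median scaling no gene of the list was called at either dose. The list medians were then 0.77 and 0.75, beside 0.38 and 0.40 for all genes. The same scaling without vehicle replicate 3 called 1 gene higher at 1 nM, and 4 higher and 1 lower at 10 nM. Within the first slide, with 1 array per dose, none was called and the medians were 0.16 and 0.21.

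Among 18 co-regulators of the dimers, all measured, 4 rose and 0 fell at 1 nM in limma, and 5 rose and 1 fell at 10 nM. At an unadjusted p under 0.05, 7 rose and 0 fell at 1 nM, where the share of all genes was not counted. After adjustment 11.8% of all genes rose and 11.8% fell at 1 nM, and 15.4% and 14.7% did so at 10 nM. The medians of the co-regulators were 0.23 and 0.22, beside -0.09 and -0.11 for all genes. Six4 fell by 0.40 at 10 nM (adjusted p = 0.00747, limma). Smarcd3, the BAF60c subunit that prepares chromatin for MyoD, was higher by 0.30 and 0.34 (adjusted p = 0.0278 and 0.0122, limma). Kat2b, the acetyltransferase PCAF, was higher by 0.71 at 1 nM (adjusted p = 0.0291, limma), with 0.55 at 10 nM (adjusted p = 0.0616). Cbfa2t3 rose by 0.60 and 0.94 on the probe used (adjusted p = 0.000189 and 1.18e-05, limma), whereas its other probes gave 0.22 and -0.24 at 1 nM and -0.02 and -0.35 at 10 nM. Calls of Smarcd3 and Kat2b at 1 nM were lost under 14 and 10 of 25 alternatives. With scaling to the array median 0 co-regulators were called at 1 nM and 1 at 10 nM, and the difference of Six4 at 10 nM turned to 0.13. The list medians were then 0.72 and 0.75, beside 0.38 and 0.40 for all genes. Without vehicle replicate 3 that scaling called 1 co-regulator higher at 1 nM and 4 higher at 10 nM. Of 4 genes that control the stability of Id proteins, 1 fell at each dose. The one that fell was Usp1, the deubiquitinase that protects Id proteins, by 0.50 and 0.38 (adjusted p = 0.00335 and 0.00948, limma), and with median scaling it was not called, its difference at 10 nM turning to 0.15. Within the first slide neither Six4 nor Usp1 was called.

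Markers of proliferation moved with the treatment. All 10 were lower at both doses, with a median of -4.17 at 1 nM and -4.79 at 10 nM. Of all genes, 11.8% fell at 1 nM and 14.7% at 10 nM, with medians of -0.09 and -0.11. The summed signal of the 10 markers, in multiples of the 75th percentile of the array, was 12.3 to 12.7 at 1 nM and 12.3 to 12.6 at 10 nM, against 49 to 53.3 in vehicle. Most of the treated sum came from Pcna, with a level of 3.36 at 1 nM and 3.45 at 10 nM, against 3.98 in vehicle. Sums of this kind, here and for the cell type markers, mostly follow the brightest probes and do not weigh the genes equally. Mki67 was 22.3-fold and 44.4-fold lower (adjusted p = 2.22e-07 and 6.13e-08, limma), and Ccna2, Birc5 and Ccnb1 differed by -4.06, -4.27 and -4.05 at 1 nM and by -4.70, -5.02 and -4.88 at 10 nM. Of the 10, 6 were lower still at 10 nM than at 1 nM. Their part in the changes of Id2, Id3 and Msc was not tested.

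Of 8 skeletal muscle markers, all well above background on every array, 3 rose at 1 nM and 4 at 10 nM (2 without vehicle replicate 3). Des, Ckm, Acta1, Myh3, Chrna1 and Cdh15 are also in the list of E-box target genes, and Myod1 is a myogenic factor. The counts of these lists are therefore not independent. Scaling to the array median called 0 at 1 nM and 2 at 10 nM, and without vehicle replicate 3 that scaling called 2 at each dose. Their median change was 0.34 and 0.31, and within the first slide 0.21 and 0.30. Their summed signal was 329 to 360 and 345 to 353 at the 2 doses, against 274 to 302 in vehicle. Of 4 measured smooth muscle markers, 3 fell at each dose. The sum over the 5 on the array was 136 to 148 at 1 nM and 107 to 112 at 10 nM, against 205 to 220 in vehicle. Of 6 adipocyte markers, 2 rose at 1 nM and 3 at 10 nM, and their sum was 2.79 to 2.94 and 6.08 to 6.48, against 0.892 to 1.57. In each of these lists every marker was above background on at least 1 array. Of all genes, 11.8% rose and 11.8% fell at 1 nM, and 15.4% rose and 14.7% fell at 10 nM. The part of these cell type markers in the results was not tested either.

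**Figure D5:**
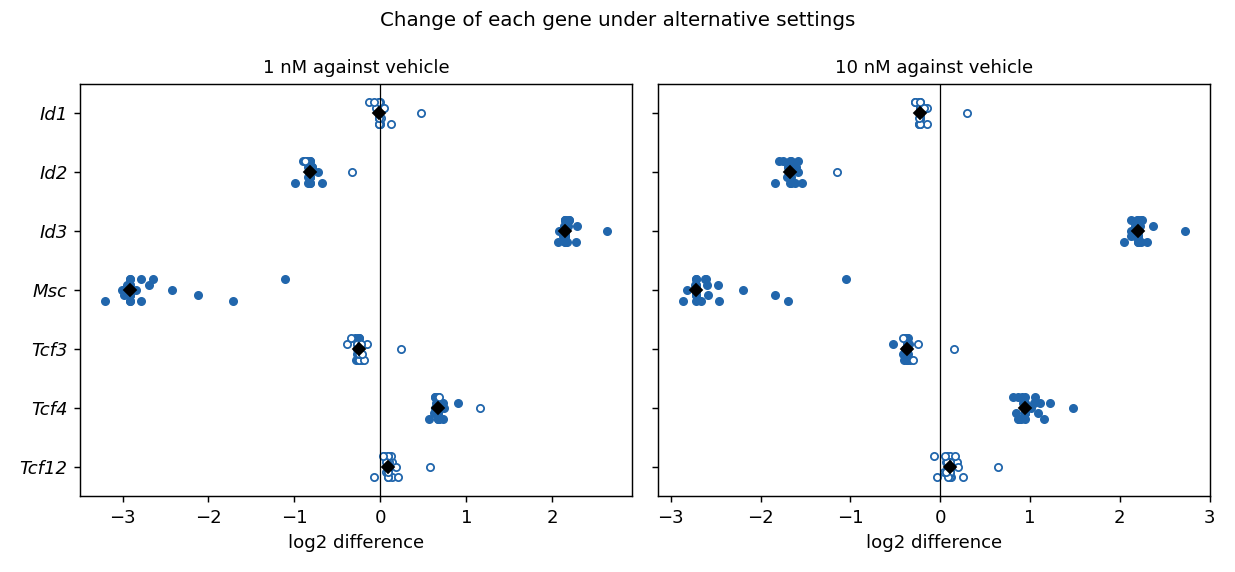
Log2 difference from vehicle of the 7 tested genes under 25 alternative settings (blue, filled where the adjusted p is under 0.05) and in the reported fit (black diamonds). Id3 and Msc passed under every setting at both doses, with Msc between -3.2 and -1.11 at 1 nM. The isolated points to the right of Id1, Id2, Tcf3 and Tcf12 are the values with scaling to the array median.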

How the data were processed

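Total RNA of 9 C2C12 samples was labelled with Cy3 and hybridised to 1-colour Agilent arrays. Per the file headers, the processed signal, the mean signal and the local background are intensity values on a linear scale that the authors' scanner software made by reading each spot, and further columns mark each spot as control, saturated, non-uniform or detected above background. Agilent Feature Extraction 11.5.1.1 and limma (no version) are named in the submitters' processing notes. The deposited series table holds log2 values, and its normalization is not given in the sources used here. It served as an alternative.

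Here, log2 of the processed signal minus the 75th percentile of each array was used. Control spots and spots marked as non-uniform were left out. Of 39429 probes, 28342 (71.9%) were kept because all 3 arrays of some group detected them well above background. Where a gene had several kept probes, the one with the highest mean stood for it, which left 21995 genes. Of these, 1708 had no value on the array of vehicle replicate 3, Id4 being outside the count. Names came from RefSeq (GRCm38.p6), by accession for 21036 probes and by symbol for 2168, and 5138 kept the name in the files. One fit of all arrays (limma 3.58.1, R 4.3.3, lmFit and eBayes, no block) gave each contrast. No minimum fold is given for Id4, which was not well above background on most arrays, those of vehicle included. The precision is limited by 3 arrays per group. The scripts were tested on simulated data.

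The members and gene lists were chosen with earlier results of these data known. Named genes were all members, the 4 myogenic factors, up to 4 called genes of each list and comparison with vehicle by smallest p, the 3 genes nearest in pattern to a member that spans at least 1, and Cyp24a1, and others are marked as chosen later. Some genes that this rule names are not reported here. No 2 samples held the same values. Same-numbered samples of the dose groups deviated together (correlations 0.484, 0.329 and 0.144) while those of a dose and vehicle did not (-0.42 to 0.0528). The values printed come from the fit without a block, and the block served as an alternative. The arrays came from 3 slides. The first held vehicle replicates 1 and 2 and replicate 1 of each dose, and the third held replicate 3 of 10 nM alone.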

Additional observations from a re-analysis of the deposited data

How the results depend on the processing

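Each member was refitted under 25 alternatives and the members called were counted. Id3 and Msc were called at both doses, and Tcf4 at 10 nM, under all of them. Scaling to the array median called 2 members at 1 nM, 3 at 10 nM and 0 from one dose to the other, and gave Tcf3 differences of 0.24 and 0.15 (adjusted p = 0.643 and 0.755, limma). Id2 was then -0.33 at 1 nM and -1.15 at 10 nM (adjusted p = 0.538 and 0.0534). With the median and without vehicle replicate 3 the counts were 4, 4 and 1. Within the first slide 2 members were called at 1 nM and 0 between the doses, Id2 at -0.88 (adjusted p = 0.0694) and -0.91, and within the second slide 0 between the doses, Id2 at -0.86. Fewer arrays enter these fits. Array weights, whose estimation did not converge, called 2 members between the doses. The other counts were within 1.5 times those reported. Leaving out 1 array gave 4 to 5 members at 1 nM, 5 to 6 at 10 nM and 1 in the comparison of the doses. A replicate block left the counts at 5, 5 and 1 and changed no call of a member, but lowered the genes called between the doses to 459 from 837. Genes called over all genes ranged from 1513 (median scaling) to 11509 (array weights) at 1 nM, beside 5188, from 2530 to 10453 under the same settings at 10 nM, beside 6622, and from 0 (second slide) to 1887 (array weights) between the doses. The cause of these shifts was not tested. Signal over background limits Id4, Myf5 and the size of the fall of Msc.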

Other observations

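Further genes of the helix-loop-helix list were picked after their values had been seen. Atoh8 was higher by 1.01 at 1 nM and 1.15 at 10 nM (adjusted p = 0.0049 and 0.00204, limma), without a value on the array of vehicle replicate 3. Bhlhe40, a transcriptional repressor of the clock, differed by -0.57 and -0.93 (adjusted p = 0.00227 and 0.000115, limma), and its paralogue Bhlhe41 by -0.50 and -1.10 (adjusted p = 0.139 and 0.00569). Twist2, a repressor of MyoD activity, fell by 0.34 and 0.65 (adjusted p = 0.00825 and 0.000205, limma). Twist2 was also lower at 10 nM than at 1 nM by -0.31 (adjusted p = 0.045, limma). When arrays were scaled to the median, with or without vehicle replicate 3, no gene of the list was called lower between the doses. Among BMP antagonists, Chrd was higher by 1.04 and 1.31 (adjusted p = 0.000308 and 6.3e-05, limma), whereas Grem1 fell by 0.60 at 10 nM (adjusted p = 0.00637), with 0.28 at 1 nM (adjusted p = 0.139), and was lower at 10 nM than at 1 nM by -0.88 (adjusted p = 0.00751).

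The remaining marker lists gave the counts below in limma, where 11.8% of all genes rose and 11.8% fell at 1 nM. At 10 nM 15.4% of all genes rose and 14.7% fell. Of 6 fibroblast markers 3 rose and 3 fell at 1 nM, and 2 rose and 3 fell at 10 nM, with a summed signal of 54 to 59.5 and 50.3 to 58.9, against 58.2 to 69.8 in vehicle. Of 4 measured endothelial markers 1 rose at 1 nM, and 1 rose and 1 fell at 10 nM. The sums over the 5 endothelial markers on the array were 3.89 to 5.26 and 4.61 to 6.3, against 4.44 to 6.01. Of 5 macrophage markers 0 were called at either dose, with sums of 17.8 to 19.2 and 16.1 to 21.3, against 20.8 to 25.2. At each dose 1 passed an unadjusted p under 0.05, where the share of all genes was not counted. Without vehicle replicate 3, 1 rose at each dose. Of 4 measured osteoblast markers 1, Runx2, fell at each dose, and without vehicle replicate 3, 1 rose and 1 fell at 1 nM. The Runx2 call was lost under 5 of 25 alternatives at 1 nM and under 3 at 10 nM. With quantile normalization 1 osteoblast marker rose and 0 fell at each dose. The sums over the 5 osteoblast markers on the array were 0.427 to 0.462 and 0.274 to 0.336, against 0.406 to 0.624.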
